A study of Mus musculus and Rattus norvegicus with 30 samples.

Results

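The genes described here carry fatty acids into heart muscle, activate them to acyl-CoA and break them down by beta-oxidation in the mitochondria, together with the enzymes that trim the acyl-CoA pool and set the level of malonyl-CoA. They are a list of 36 gene symbols, matched to the data by name. The list was chosen with earlier results of these data known, so its counts beside the shares of all genes are a description. Among 32545 rat genes 34 matched, and 33 of them passed the low-count filter. Among 54307 mouse genes all 36 matched and passed the filter. Eci2 and Acot1 were not analysed in rat, and rat Echs1 was not tested.

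Poly(A) RNA was sequenced from cultured rat myocytes and from mouse hearts, both exposed to agonists of the estrogen-related receptors (ERR). The rat samples were neonatal rat ventricular myocytes (NRVM), primary heart muscle cells from pups of 3 days, pre-plated to remove fibroblasts and grown with bromodeoxyuridine. They fell into 4 groups of 3 libraries: siRNA against ERRalpha and ERRgamma with the pan-ERR agonist 915, the same siRNA with DMSO vehicle, scramble siRNA with 915, and scramble siRNA with vehicle. The siRNA was typically used at 25 nM, and 915 at 10 µM for 24 hours. The mouse samples were left ventricles of wild-type mice after transverse aortic constriction (TAC), in which a narrowed aortic arch makes the ventricle pump against high pressure, or after a sham operation. Mice were injected intraperitoneally with the ERR agonist 332, or were given vehicle, for 6 weeks. There were 5 TAC hearts on 332, 5 TAC hearts on vehicle, 5 sham hearts on 332 and 3 sham hearts on vehicle. Age and sex are not stated in the labels, and the 2 compounds were used in different species and settings, so they are not compared with each other. Separate isolations are not named for the rat replicates, so their p-values measure the spread between these samples, which may be technical.

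Long-chain fatty acids reach the myocyte from lipoproteins and albumin, cross the membrane with the help of CD36 and the SLC27 transporters, and are carried in the cytosol by fatty acid binding proteins. Acyl-CoA synthetases trap them as acyl-CoA, the carnitine shuttle moves them into the matrix, and each turn of beta-oxidation then runs through an acyl-CoA dehydrogenase, a hydratase, a hydroxyacyl-CoA dehydrogenase and a thiolase. Electrons taken by the dehydrogenases pass through the electron transfer flavoprotein to the respiratory chain. The adult heart draws most of its ATP from this pathway, and ERRalpha and ERRgamma, like the fatty acid receptor PPARalpha, are known to bind near many of its genes.

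The promoters are shown because the study manipulates DNA-binding receptors. ERR proteins bind a half-site with the core AAGGTCA, often in the extended form TNAAGGTCA, and PPARalpha with RXR binds a direct repeat of AGGTCA with 1 base between the copies (the DR-1 element). RefSeq promoters of mouse build GRCm38.p6, 250 bases before to 50 bases after each start site, were at hand for 30 of the 36 members. The core occurred on either strand in 3 of the 30 (10%), namely Acacb, Acadm and Acsl6, against 5.38% of 27025 genes. The extended form, which contains the core, occurred in 1 of the 30 (Acsl6), against 1.43% of genes, and the direct repeat in 0 of the 30, against 0.0481% of genes. A match describes these letters in this window, and a missing match says nothing of binding elsewhere. The windows of 3 genes follow, each 5′ to 3′ on the gene's own strand in lower case, with the core in capitals, which reads TGACCTT because it lies on the opposite strand. Fabp3 is shown as the member with the largest fall in the knockdown cells, Acadm as the fall next in size, with a core starting 249 bases before the start site, and Acacb for a core starting 44 bases after it. The windows are mouse sequence at chr4:130308488-130308787 (Fabp3, plus strand), chr3:153944594-153944893 (Acadm, minus strand) and chr5:114165268-114165567 (Acacb, plus strand).
Fabp3: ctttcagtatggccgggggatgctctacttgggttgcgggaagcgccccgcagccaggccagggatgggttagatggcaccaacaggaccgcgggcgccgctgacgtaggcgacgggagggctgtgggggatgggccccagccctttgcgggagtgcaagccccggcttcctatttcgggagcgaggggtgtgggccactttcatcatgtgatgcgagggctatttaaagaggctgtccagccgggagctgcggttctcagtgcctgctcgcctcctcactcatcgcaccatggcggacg
Acadm: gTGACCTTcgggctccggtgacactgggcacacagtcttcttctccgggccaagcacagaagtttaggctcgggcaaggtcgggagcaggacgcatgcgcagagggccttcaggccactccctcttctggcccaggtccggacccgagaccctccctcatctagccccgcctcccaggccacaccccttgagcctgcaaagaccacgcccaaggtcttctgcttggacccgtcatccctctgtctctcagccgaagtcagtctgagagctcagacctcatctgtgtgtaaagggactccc
Acacb: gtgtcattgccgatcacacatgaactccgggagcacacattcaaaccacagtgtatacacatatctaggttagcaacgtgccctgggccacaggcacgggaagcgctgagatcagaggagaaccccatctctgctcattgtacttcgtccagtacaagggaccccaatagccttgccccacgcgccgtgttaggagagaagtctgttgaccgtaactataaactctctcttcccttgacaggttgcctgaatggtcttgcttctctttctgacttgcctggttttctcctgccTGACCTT
The Fabp3 window holds no core. Hadha and Hadhb, which encode the alpha and beta subunits of the mitochondrial trifunctional protein, lie head to head on mouse chromosome 5, with start sites 273 bases apart (30154980 on the minus strand and 30155253 on the plus strand).

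Depth ran from 12013379 to 18315341 counts per rat library, and from 11375917 to 16599930 estimated counts per mouse heart. Knockdown held for both siRNA targets. Esrra, the gene of ERRalpha, gave 12.7, 13.4 and 18.9 CPM (counts scaled to equal library size and composition) in knockdown cells on 915 and 227, 228 and 229 CPM in scramble cells on 915. On vehicle it gave 13.98, 21.9 and 16.1 CPM in knockdown cells and 199, 178 and 169 CPM in scramble cells. Every knockdown library lay far below every scramble library. Esrrg, the gene of ERRgamma, gave 25.1, 16.1 and 22.2 CPM in knockdown cells on 915 and 263, 273 and 302 CPM in scramble cells on 915. With vehicle there were 18.7, 18.1 and 17.5 CPM in knockdown cells and 131, 130.3 and 131 CPM in scramble cells, and on the log2 scale Esrrg fell by 2.85 (SE 0.11, adjusted p = 5.81e-11) with the knockdown in vehicle. Heart muscle markers were abundant in both systems. In knockdown cells the summed CPM of 6 matched rat markers ran from 4180 to 5238 on 915 and 5719 to 6067 on vehicle. In scramble cells it ran from 7230 to 7953 on 915 and 7259 to 8000 on vehicle. Fibroblast markers were abundant in the rat cultures as well. The sum of 8 was 8850 to 11209 CPM in knockdown cells on 915 and 13136 to 14544 CPM in knockdown cells on vehicle. In scramble cells that sum was 7580 to 8343 CPM on 915 and 13720 to 14768 CPM on vehicle. The mouse hearts came in 2 sequencing sets, as index and lane numbers in the names of the deposited files show: set 1 holds replicates 1 to 3 and set 2 holds replicates 4 and 5, so that sham vehicle hearts stand in set 1 only. Within set 1 the sham hearts on 332 carry lane 3 and all others lane 4, so an effect of 332 in sham hearts cannot be told apart from the lane, and the same holds for TAC against sham on 332 within that set.

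Fabp3, the heart-type fatty acid binding protein, had the highest level per length of all members in both systems, with 1335 ± 116 FPKM in scramble vehicle myocytes and 1018 ± 106 TPM in sham vehicle hearts (SD, n = 3 each). FPKM and TPM are the authors' values, scaled for transcript length, and only on these scales are levels compared between genes. In rat, Hadhb (501 ± 14.01 FPKM) came next, then Acadl (302 ± 14.9 FPKM) and Hadha (244 ± 8.76 FPKM), each apart from its neighbour by more than their SDs. Acaa2 (174 ± 9.68 FPKM), Acsl1 (168 ± 8.44 FPKM) and Decr1 (167 ± 6.58 FPKM) lay within 1 SD of each other. In mouse, Hadhb (633 ± 14.6 TPM) was followed by Lpl (528 ± 18.6 TPM), Hadha (374 ± 50.2 TPM) and Etfb (308 ± 2.96 TPM). Lpl, the lipase that frees fatty acids from circulating triglyceride, was thus the third in the heart, while it stood at 61.1 ± 2.50 FPKM in rat. The lowest tested members were Acsl6 in rat (0.225 ± 0.00889 FPKM) and Acsl3 in mouse (0.729 ± 0.0743 TPM), both acyl-CoA synthetases.

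**Figure D1:**
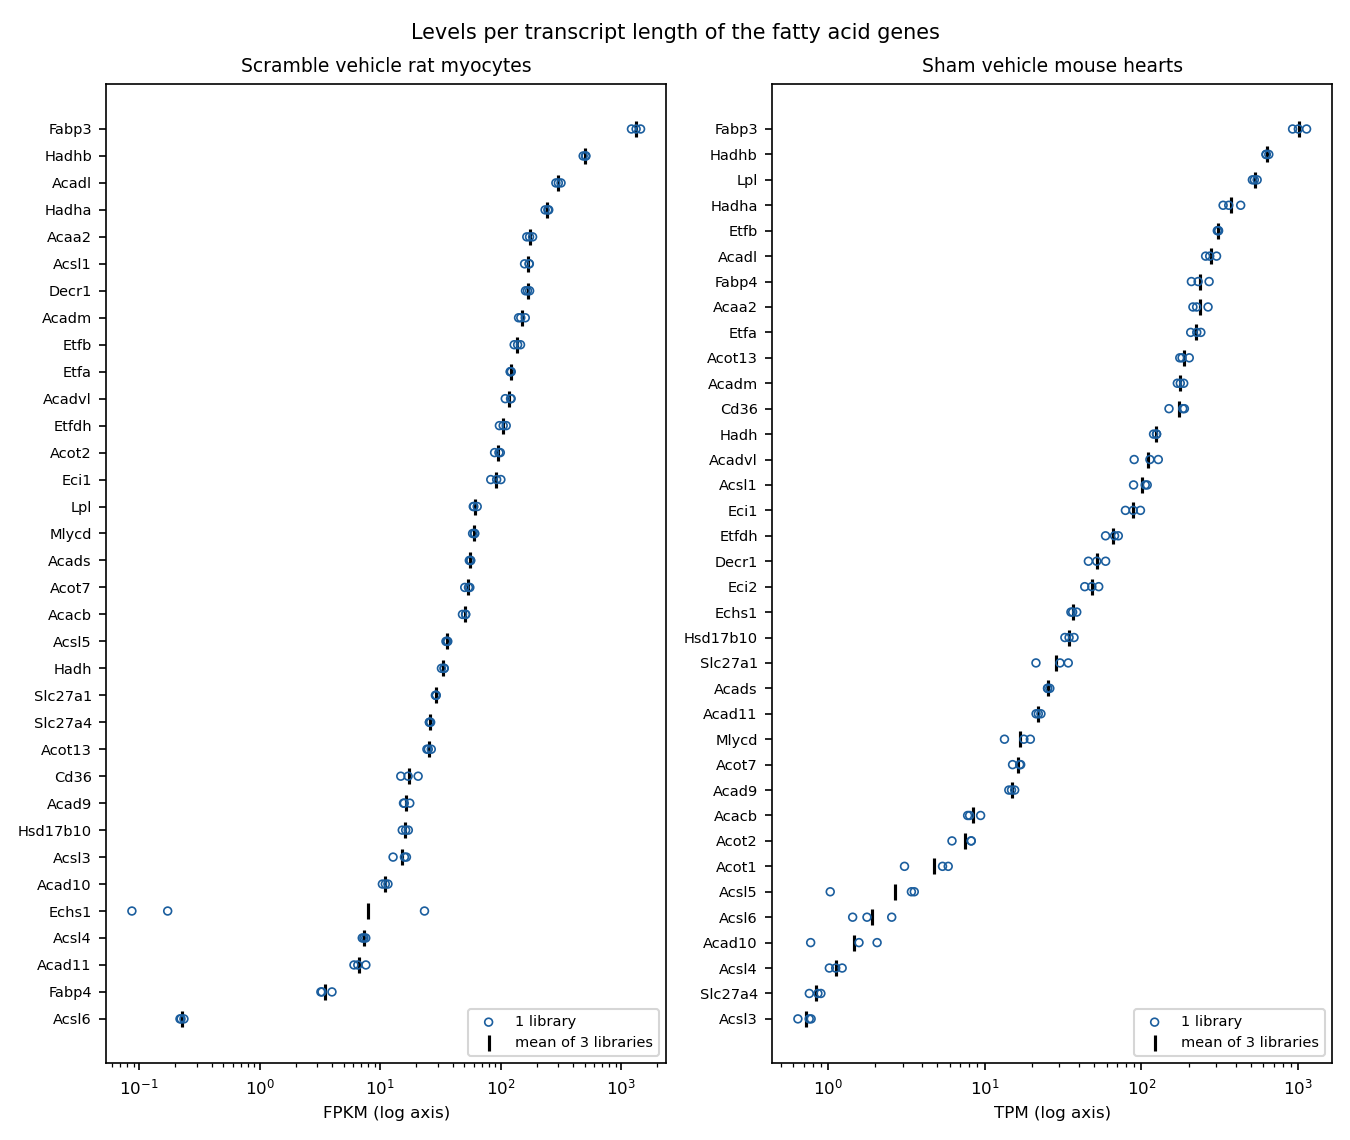
Level per transcript length of each member in scramble vehicle rat myocytes (left, FPKM) and sham vehicle mouse hearts (right, TPM), both on log axes; circles are single libraries and the tick is the mean of 3. Fabp3 is highest on both sides, at a mean of 1335 FPKM and 1018 TPM, and the circles of rat Echs1 spread far apart because 1 library holds nearly all of its counts.

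Rat Echs1, the short-chain enoyl-CoA hydratase, could not be used. It had 0, 5 and 2 counts in knockdown cells on 915, 3, 2 and 259 in knockdown cells on vehicle, 5, 6 and 8 in scramble cells on 915, and 605, 2 and 4 in scramble cells on vehicle. A single library in each vehicle group held nearly all counts. The gene (chromosome 1, 212570195 to 212579057 in rn6, minus strand) shares 608 bases with Paox on the opposite strand, and the libraries were unstranded. Paox itself held 323 to 474 counts in every library. Its neighbour Fuom, which shares 0 bases with Echs1, held 73 counts in scramble vehicle replicate 1 and 34 in scramble 915 replicate 1. Fuom held 0 in knockdown vehicle replicate 3. The cause of the uneven Echs1 counts was not tested. Results that rest on the 2 libraries concerned, scramble vehicle replicate 1 and knockdown vehicle replicate 3, were also computed without both.

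Knockdown of ERRalpha and ERRgamma lowered most of the pathway. In vehicle, 24 of 33 tested members fell and 1 rose (edgeR quasi-likelihood test, adjusted p under 0.05 over all 15181 genes), against a background of 12.7% of all genes lower and 7.75% higher. The median log2 change was -0.86 over the members and 0.01 over all genes. In 26 members every knockdown library lay below every scramble library, in 1 above, and in 6 the groups overlapped; of all tested genes 19.1% lay wholly below and 17% wholly above. The falls covered every step: 4 of 6 uptake and binding genes, 1 of 5 synthetases, 6 of 7 acyl-CoA dehydrogenases, 4 of 5 genes of hydration, the second oxidation and thiolysis, both auxiliary enzymes, all 3 electron transfer genes, 2 of 3 thioesterases and both malonyl-CoA enzymes. All 25 calls were also made under every alternative run, each library left out included. In such bulk samples fewer myocytes and less RNA per myocyte cannot be told apart. Cardiomyocyte markers moved too: 3 of 6 fell (log2 changes of -3.09 for Tnni3, -1.96 for Myh6 and -1.39 for Myl2) and 1 rose (0.18 for Actn2). Tnnt2 and Ryr2 were not called. On vehicle Tnnt2 gave 3256, 3104 and 2978 CPM in knockdown cells and 3439, 3051 and 3161 CPM in scramble cells. Of the other markers, 3 of 6 endothelial, 3 of 6 macrophage and 1 of 8 fibroblast markers rose. The part of all these markers in the result was not tested.

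**Figure D2:**
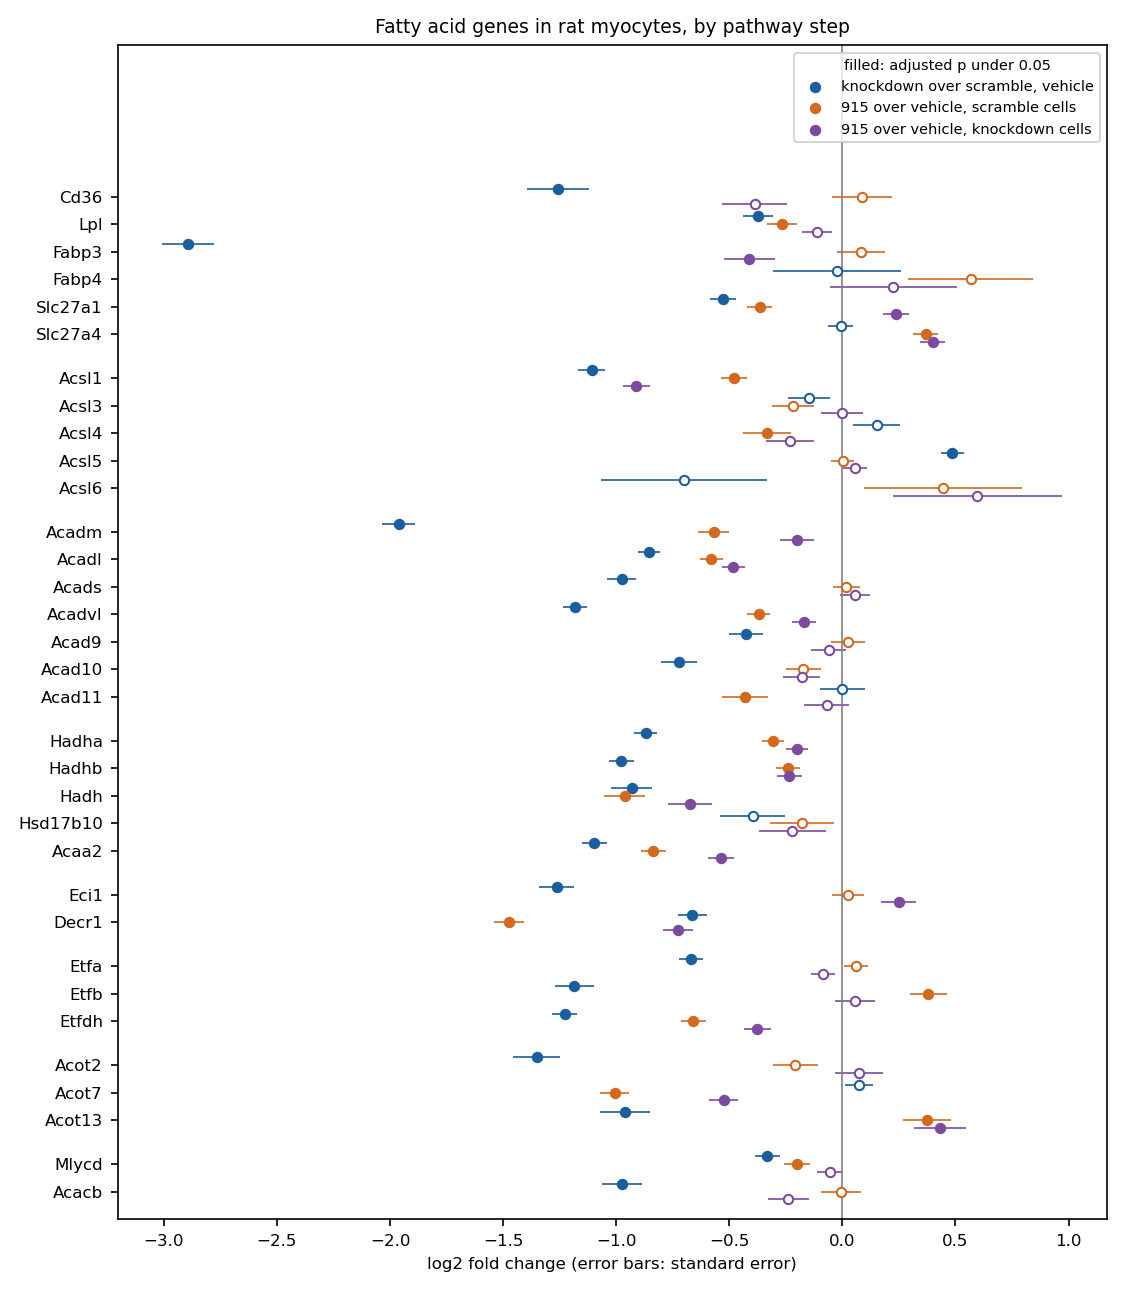
Log2 fold change of each tested member in rat myocytes, grouped by pathway step; bars are standard errors, and filled points passed an adjusted p of 0.05. Knockdown over scramble in vehicle lies below 0 for most genes, down to -2.89 for Fabp3, while the 915 effects run from -1.47 (Decr1, scramble cells) to 0.60 (Acsl6, knockdown cells, not called).

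The agonist 915 moved members in both directions. In scramble cells 16 of 33 fell and 3 rose, against 20.6% of all genes lower and 21.5% higher, with a median log2 change of -0.21 over the members. In knockdown cells 12 fell and 4 rose, against 17.6% of all genes lower and 18.1% higher, with a median of -0.17. Knockdown against scramble in the presence of 915 gave 23 falls and 3 rises, against 17.7% lower and 16.2% higher, with a median of -0.76. These comparisons share libraries with each other and with the knockdown in vehicle, so their values are given side by side without a measure of likeness. The effect of 915 itself differed between knockdown and scramble cells for 7 members, 6 of them with a more positive and 1 with a more negative log2 change in knockdown cells, against 1.74% and 1.99% of all genes (3.73% either way). That split was 5 and 2 with a replicate block, and 3 and 4 without knockdown 915 replicate 3. Markers of cell types moved in these comparisons as well. With the knockdown under 915 all 6 cardiomyocyte markers fell, while 4 of 6 endothelial, 4 of 8 fibroblast, 5 of 7 smooth muscle and pericyte and 4 of 6 macrophage markers rose. With 915 in knockdown cells 3 of 6 cardiomyocyte markers fell and 1 rose, of the 7 smooth muscle and pericyte markers 6 were lower and 1 higher, 3 of 8 fibroblast markers fell and 1 rose, 3 of 6 endothelial markers rose and 2 fell, and 2 of 6 macrophage markers rose. With 915 in scramble cells, 6 of 7 smooth muscle and pericyte markers and 5 of 8 fibroblast markers fell and 1 of 8 rose. In the same comparison 2 of 6 cardiomyocyte markers fell and 1 rose. Of 6 endothelial markers 1 was lower and 1 higher. The summed smooth muscle markers stood at 1987 to 2414 CPM in scramble cells on 915 and 5133 to 5432 CPM in scramble cells on vehicle, and their part in the result was not tested.

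**Figure D3:**
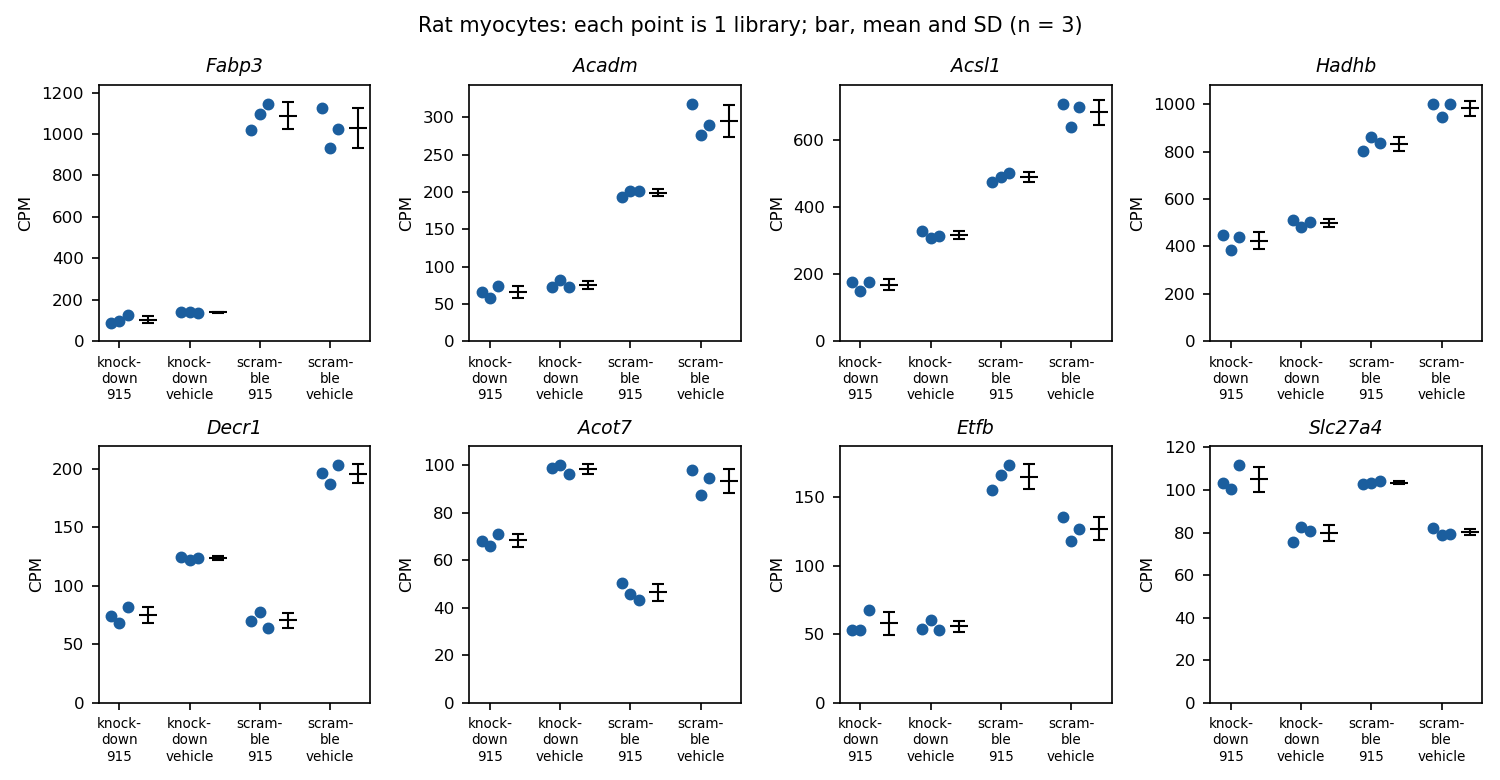
CPM of 8 members in every rat library, with the mean and SD of each group of 3 beside the points; groups from left to right are knockdown with 915, knockdown with vehicle, scramble with 915 and scramble with vehicle. Fabp3 separates knockdown from scramble cells with either treatment, whereas Decr1 and Acot7 are lowest in scramble cells on 915 or close to it, at 64.1 to 77.3 CPM and 43.3 to 50.3 CPM.

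Among the uptake and binding genes, Fabp3 changed most (rn6 chromosome 5, 148528725 to 148535565). It gave 90.03, 97.2 and 125 CPM in knockdown cells on 915 and 142, 139 and 135 CPM in knockdown cells on vehicle. It gave 1021, 1099 and 1147 CPM in scramble cells on 915 and 1126, 935 and 1026 CPM in scramble cells on vehicle. No knockdown library came near a scramble library: with the knockdown Fabp3 fell by 2.89 (SE 0.11, adjusted p = 1.48e-08) on vehicle, to 13.5% of the level in scramble cells, and it fell by 3.39 (SE 0.12, adjusted p = 2.96e-09) on 915, to 9.57%. The agonist lowered Fabp3 in knockdown cells by 0.41 (SE 0.11, adjusted p = 0.016), a call lost without knockdown 915 replicate 2, where the log2 change was -0.36. In scramble cells its log2 change with 915 was 0.08 (adjusted p = 0.582). Cd36, the fatty acid translocase, gave 55.4, 42.1 and 53.4 CPM in knockdown cells on 915 and 161, 170.4 and 169 CPM in scramble cells on 915. On vehicle it gave 64.1, 59.9 and 73.4 CPM in knockdown cells and 154, 132 and 185 CPM in scramble cells. It fell with the knockdown by 1.73 (SE 0.14, adjusted p = 8.24e-06) on 915 and by 1.26 (SE 0.14, adjusted p = 0.000121) on vehicle, and its groups did not overlap in either pair. Lpl fell with the knockdown in vehicle by 0.37 (SE 0.07, adjusted p = 0.00018) and with 915 in scramble cells by 0.27 (SE 0.07, adjusted p = 0.00204). It also fell with the knockdown under 915 by 0.22, a call lost without replicate 3 of knockdown 915 (-0.17) or of scramble 915 (-0.14).

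The 2 SLC27 transporters, which couple fatty acid import to acyl-CoA formation, differed from each other with the knockdown in vehicle. Slc27a4 gave 103, 100.5 and 112 CPM in knockdown cells on 915 and 75.6, 82.7 and 80.8 CPM in knockdown cells on vehicle. It gave 103, 103 and 104 CPM in scramble cells on 915 and 81.9, 79.1 and 79.5 CPM in scramble cells on vehicle. Every library on 915 lay above every vehicle library, and Slc27a4 rose with 915 by 0.40 (SE 0.06, adjusted p = 3.9e-06) in knockdown cells and by 0.37 (SE 0.06, adjusted p = 8.48e-06) in scramble cells, while the knockdown in vehicle gave -0.01 (adjusted p = 0.95). Slc27a1 gave 74.4, 79.1 and 76.01 CPM in knockdown cells on 915 and 68.5, 63.3 and 62.8 CPM in knockdown cells on vehicle. It gave 71.8, 71.96 and 73.8 CPM in scramble cells on 915 and 94.4, 93.4 and 92.5 CPM in scramble cells on vehicle. Slc27a1 fell with the knockdown in vehicle by 0.53, a call made under every alternative. It rose with 915 in knockdown cells by 0.24 (SE 0.06, adjusted p = 0.00187) and fell with 915 in scramble cells by 0.37 (SE 0.06, adjusted p = 9.68e-06). The test of this difference passed (log2 difference of effects 0.60, SE 0.08, adjusted p = 5.03e-05). Fabp4, the fatty acid binding protein of adipocytes and capillary endothelium, was scarce at 1.83 to 3.83 CPM over all 12 libraries and passed no test.

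Of the acyl-CoA synthetases, Acsl1, the main form of heart muscle, gave 177, 150.1 and 177 CPM in knockdown cells on 915 and 328, 306 and 313 CPM in knockdown cells on vehicle. It gave 474, 489.5 and 501 CPM in scramble cells on 915 and 707, 638 and 698 CPM in scramble cells on vehicle. The 4 groups formed 4 separate steps, lowest in knockdown cells on 915 and highest in scramble cells on vehicle. Acsl1 fell with the knockdown by 1.11 (SE 0.06, adjusted p = 2.34e-13) in vehicle and by 1.54 (SE 0.06, adjusted p = 3.96e-16) on 915. It fell with 915 by 0.91 (SE 0.06, adjusted p = 1.55e-11) in knockdown cells and by 0.48 (SE 0.06, adjusted p = 2.32e-07) in scramble cells, and was the 1 member whose 915 effect was more negative in knockdown cells (log2 difference -0.43, SE 0.08, adjusted p = 0.0027). Acsl5, a synthetase of the endoplasmic reticulum and mitochondria, went the other way with the knockdown. It gave 135, 124 and 129 CPM in knockdown cells on 915 and 89.6, 91.1 and 85.9 CPM in scramble cells on 915. On vehicle it gave 121, 125 and 127 CPM in knockdown cells and 87.8, 89.8 and 88.9 CPM in scramble cells. It rose by 0.54 (SE 0.05, adjusted p = 8.56e-09) on 915 and by 0.49 (SE 0.05, adjusted p = 8.96e-08) on vehicle, with no overlap, and its log2 changes with 915 were 0.06 and 0.00 in knockdown and scramble cells, neither called. Acsl4, which prefers arachidonic acid, fell with 915 in scramble cells by 0.33 (SE 0.11, adjusted p = 0.0148), a call lost without any 1 of scramble 915 replicates 2 and 3 and scramble vehicle replicate 3 (each -0.31). Acsl3 and Acsl6 passed no test in rat.

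The acyl-CoA dehydrogenases take the first pair of electrons from an acyl chain, each for its own chain lengths. Acadm, the medium-chain enzyme (rn6 chromosome 2, 260124418 to 260148589), gave 65.3, 58.3 and 73.98 CPM in knockdown cells on 915 and 73.1, 81.8 and 72.4 CPM in knockdown cells on vehicle. It gave 194, 201 and 201 CPM in scramble cells on 915 and 318, 277 and 289.9 CPM in scramble cells on vehicle. Knockdown and scramble libraries were far apart with either treatment, and in scramble cells the libraries on 915 all lay below those on vehicle. Acadm fell with the knockdown by 1.96 (SE 0.07, adjusted p = 3.64e-14) in vehicle and by 1.59 (SE 0.07, adjusted p = 5.96e-13) on 915, and with 915 in scramble cells by 0.57 (SE 0.07, adjusted p = 1.12e-06). In knockdown cells the log2 change with 915 was -0.20 (adjusted p = 0.0415), and the libraries overlapped. The call was lost with DESeq2 (-0.19) and without any 1 of 8 libraries, at -0.23 to -0.11. These were knockdown 915 replicates 1 and 2 (the last giving -0.11), knockdown vehicle replicates 1 and 2, scramble 915 replicates 1, 2 and 3 and scramble vehicle replicate 3. Acadl, the long-chain enzyme and the most abundant of the step per length, gave 175, 171 and 184 CPM in knockdown cells on 915 and 246, 236 and 259 CPM in knockdown cells on vehicle. It gave 298, 298 and 301 CPM in scramble cells on 915 and 449, 423 and 469 CPM in scramble cells on vehicle. No 2 of these groups overlapped, and Acadl fell in all 4 comparisons, by 0.86 (SE 0.05, adjusted p = 1.9e-12) with the knockdown in vehicle and by 0.58 (SE 0.05, adjusted p = 1.1e-09) with 915 in scramble cells.

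Acadvl, the very long-chain enzyme, fell with the knockdown by 1.18 (SE 0.05, adjusted p = 1.02e-14) in vehicle and by 0.99 (SE 0.05, adjusted p = 1.42e-13) on 915, and with 915 in scramble cells by 0.37 (SE 0.05, adjusted p = 2.01e-06). Its fall with 915 in knockdown cells (-0.17, adjusted p = 0.0131) was lost without replicate 2 of knockdown 915 (-0.14) or of knockdown vehicle (-0.16). Acads, the short-chain enzyme, fell with the knockdown by 0.98 (SE 0.06, adjusted p = 1.05e-11) in vehicle but its log2 change with 915 was 0.06 in knockdown cells and 0.02 in scramble cells, neither called. Acad10 and Acad9, the last also an assembly factor of respiratory complex I, fell with the knockdown by 0.72 and 0.43 and passed no test for 915. Acad11, an enzyme of long chains and hydroxylated acyl-CoA, gave 22.5, 25.2 and 25.3 CPM in knockdown cells on 915 and 18.9, 18.99 and 18.9 CPM in scramble cells on 915. On vehicle it gave 27.9, 25.6 and 23.1 CPM in knockdown cells and 29.03, 22.8 and 24.7 CPM in scramble cells, which overlapped. It fell with 915 in scramble cells by 0.43 (SE 0.10, adjusted p = 0.00126) and rose with the knockdown under 915 by 0.36 (SE 0.10, adjusted p = 0.00759).

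The enzymes of hydration, the second oxidation and thiolysis all had lower means in knockdown cells. Hadhb, the thiolase subunit of the trifunctional protein, gave 449.9, 385 and 439.7 CPM in knockdown cells on 915 and 514, 482 and 503 CPM in knockdown cells on vehicle. It gave 803, 861 and 837 CPM in scramble cells on 915 and 1002, 948 and 1004 CPM in scramble cells on vehicle. All 4 groups were apart, with the larger gap between knockdown and scramble cells. Hadhb fell with the knockdown by 0.98 (SE 0.05, adjusted p = 7.72e-13) in vehicle and with 915 by 0.23 (SE 0.05, adjusted p = 0.00145) in knockdown cells and by 0.24 (SE 0.05, adjusted p = 0.000808) in scramble cells. Its partner Hadha, which carries the hydratase and hydroxyacyl-CoA dehydrogenase activities, fell by 0.87, 0.20 and 0.31 in the same 3 comparisons. Hadh, the hydroxyacyl-CoA dehydrogenase of short and medium chains, gave 21.3, 16.7 and 17.4 CPM in knockdown cells on 915 and 27.8, 27.4 and 32.96 CPM in knockdown cells on vehicle. It gave 26.5, 29.8 and 29.9 CPM in scramble cells on 915 and 57.5, 53.8 and 56.8 CPM in scramble cells on vehicle. The scramble vehicle libraries stood far above all others, and Hadh fell with 915 by 0.67 (SE 0.10, adjusted p = 5.79e-06) in knockdown cells and by 0.96 (SE 0.09, adjusted p = 5.38e-09) in scramble cells. Acaa2, the matrix thiolase, fell with the knockdown by 1.10 (SE 0.06, adjusted p = 1.07e-13) in vehicle and with 915 by 0.84 (SE 0.05, adjusted p = 8.36e-12) in scramble cells and by 0.54 in knockdown cells. Hsd17b10 narrowly missed the threshold with the knockdown in vehicle, at a log2 change of -0.40 (adjusted p = 0.0513). It fell under 915 by 0.44 (adjusted p = 0.0214), a call lost without knockdown 915 replicate 1 (-0.27) or scramble 915 replicates 1 (-0.40) or 2 (-0.44).

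Decr1, the dienoyl-CoA reductase that unsaturated chains need, had the largest change with 915 of all members (rn6 chromosome 5, 29573898 to 29601748). It gave 74.5, 68.1 and 81.7 CPM in knockdown cells on 915 and 125, 122 and 124 CPM in knockdown cells on vehicle. It gave 70.1, 77.3 and 64.1 CPM in scramble cells on 915 and 197, 187 and 203 CPM in scramble cells on vehicle. On 915 the knockdown and scramble libraries overlapped, while on vehicle they were well apart. Decr1 fell with 915 by 1.47 (SE 0.07, adjusted p = 1.24e-14) in scramble cells and by 0.73 (SE 0.07, adjusted p = 6.39e-09) in knockdown cells, and the effects differed by 0.75 on the log2 scale (SE 0.09, adjusted p = 2.75e-05). It fell with the knockdown by 0.66 (SE 0.06, adjusted p = 1.76e-08) in vehicle. Eci1, the enoyl-CoA isomerase of the matrix, gave 42.5, 47.9 and 50.1 CPM in knockdown cells on 915 and 37.8, 40.3 and 40.4 CPM in knockdown cells on vehicle. It gave 96.4, 101 and 91.8 CPM in scramble cells on 915 and 104, 84.8 and 95.4 CPM in scramble cells on vehicle. It fell with the knockdown by 1.26 (SE 0.08, adjusted p = 2.7e-12) in vehicle and by 1.04 (SE 0.08, adjusted p = 4.15e-11) on 915. In knockdown cells it rose with 915 by 0.25 (SE 0.08, adjusted p = 0.0144), a call lost without knockdown 915 replicate 3 (0.20) or knockdown vehicle replicate 1 (0.22), and in scramble cells its 915 groups overlapped.

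The electron transfer genes fell together with the knockdown but parted with 915. Etfb, the beta subunit of the electron transfer flavoprotein, gave 52.7, 53.1 and 67.7 CPM in knockdown cells on 915 and 53.8, 60.5 and 53.04 CPM in knockdown cells on vehicle. It gave 155, 166 and 173 CPM in scramble cells on 915 and 135, 118 and 127 CPM in scramble cells on vehicle. It fell with the knockdown by 1.18 (SE 0.09, adjusted p = 8.83e-09) in vehicle and by 1.51 (SE 0.09, adjusted p = 1.97e-10) on 915, and rose with 915 in scramble cells by 0.38 (SE 0.08, adjusted p = 0.0011). In knockdown cells its change with 915 was 0.06 (adjusted p = 0.676), and the difference between these effects did not pass (-0.32, adjusted p = 0.167). Etfdh, the oxidoreductase that hands these electrons to ubiquinone, fell with 915 by 0.66 (SE 0.06, adjusted p = 8.08e-10) in scramble cells and by 0.38 (SE 0.06, adjusted p = 1.59e-05) in knockdown cells, and with the knockdown by 1.23 (SE 0.06, adjusted p = 2.27e-14) in vehicle. Etfa, the alpha subunit, fell with the knockdown by 0.67 in vehicle and 0.81 on 915, and its log2 change with 915 was -0.09 in knockdown cells and 0.06 in scramble cells, neither called.

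The thioesterases hydrolyse acyl-CoA back to fatty acid, and their members went in different directions. Acot2, the mitochondrial long-chain form, gave 101, 77.3 and 104 CPM in knockdown cells on 915 and 184, 217 and 193 CPM in scramble cells on 915. On vehicle it gave 94.4, 87.7 and 86.2 CPM in knockdown cells and 234, 213 and 238 CPM in scramble cells. It fell with the knockdown by 1.07 (SE 0.10, adjusted p = 7.08e-06) on 915 and by 1.35 (SE 0.10, adjusted p = 1.46e-06) on vehicle, with no overlap, and passed no test for 915. Acot7, a cytosolic form best known from brain, gave 68.02, 65.7 and 71.1 CPM in knockdown cells on 915 and 98.7, 100. and 96.04 CPM in knockdown cells on vehicle. It gave 50.3, 45.8 and 43.3 CPM in scramble cells on 915 and 97.7, 87.6 and 94.5 CPM in scramble cells on vehicle. The vehicle groups overlapped, and the scramble libraries on 915 lay below all others. Acot7 fell with 915 by 1.01 (SE 0.06, adjusted p = 5.43e-12) in scramble cells and by 0.52 (SE 0.06, adjusted p = 4.15e-07) in knockdown cells, and the effects differed by 0.48 (SE 0.09, adjusted p = 0.00226). Under 915 it was higher with the knockdown by 0.56 (SE 0.07, adjusted p = 2.31e-07). Acot13, a mitochondrion-associated form, gave 14.5, 11.9 and 14.3 CPM in knockdown cells on 915 and 9.52, 9.64 and 10.99 CPM in knockdown cells on vehicle. It gave 26.8, 24.6 and 24.7 CPM in scramble cells on 915 and 20.6, 19.2 and 18.8 CPM in scramble cells on vehicle. It rose with 915 by 0.43 (SE 0.11, adjusted p = 0.00394) in knockdown cells and by 0.37 (SE 0.11, adjusted p = 0.00557) in scramble cells, and fell with the knockdown by 0.96 (SE 0.11, adjusted p = 2.71e-07) in vehicle.

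Malonyl-CoA blocks entry of fatty acids into mitochondria. Acacb, the carboxylase that makes it in muscle, fell with the knockdown by 0.97 (SE 0.09, adjusted p = 2.79e-06) in vehicle and by 1.21 (SE 0.09, adjusted p = 2.03e-07) on 915, and its changes with 915 were -0.24 (adjusted p = 0.0537) in knockdown cells and -0.01 (adjusted p = 0.966) in scramble cells. Mlycd, the decarboxylase that removes it, gave 92.8, 90.2 and 103 CPM in knockdown cells on 915 and 100., 99.8 and 97.6 CPM in knockdown cells on vehicle. It gave 106, 113 and 106 CPM in scramble cells on 915 and 128, 121 and 126 CPM in scramble cells on vehicle. It fell with the knockdown by 0.33 (SE 0.06, adjusted p = 7.23e-05) in vehicle, and with 915 in scramble cells by 0.20 (SE 0.06, adjusted p = 0.00511). Its fall with the knockdown under 915 (-0.19, adjusted p = 0.0122) was lost without replicate 2 of knockdown 915 (-0.15) or of scramble 915 (-0.16).

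The effect of 915 differed between knockdown and scramble cells for 7 members. Decr1, Slc27a1, Acot7 and Acsl1 were called under every alternative, including the fit without both libraries with Echs1 counts. Acadm (0.37), Acaa2 (0.30) and Etfdh (0.28) were called less firmly, and none of them held without both libraries with Echs1 counts (0.28, 0.21 and 0.31). Each also lost the call without any 1 of scramble 915 replicates 1, 2 and 3, scramble vehicle replicates 1 and 3, knockdown vehicle replicates 1 and 3 and knockdown 915 replicate 3. Acadm and Etfdh lost it without knockdown 915 replicate 1 as well, and Etfdh without knockdown vehicle replicate 2. In these fits Acadm stood at 0.27 to 0.38, Acaa2 at 0.25 to 0.31 and Etfdh at 0.24 to 0.32. For Fabp3 and Cd36 the difference of effects was -0.49 (adjusted p = 0.131) and -0.48 (adjusted p = 0.263). Summed over the 34 matched members, the share of all counts was 0.323% ± 0.0168 in knockdown cells on 915, 0.375% ± 0.00663 in knockdown cells on vehicle, 0.605% ± 0.0137 in scramble cells on 915 and 0.717% ± 0.0317 in scramble cells on vehicle (SD, n = 3 each).

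Pressure overload lowered the pathway in mouse hearts. In vehicle hearts 21 of 36 members fell with TAC and 0 rose (edgeR quasi-likelihood test), against 12.8% of all 14047 genes lower and 13.5% higher. An unadjusted p of 0.05 was passed by 25 members, and DESeq2 called 22, all lower. Shares over all genes were not computed for these last 2 counts. The median log2 change was -0.40 over the members and -0.01 over all genes. In 19 members every TAC vehicle heart lay below every sham vehicle heart, in 1 above, and in 16 the groups overlapped; of all tested genes 13.6% lay wholly below and 14.3% wholly above. All 6 genes of hydration, the second oxidation and thiolysis fell, as did all 3 auxiliary enzymes and all 3 electron transfer genes, with 4 of 7 dehydrogenases, 2 of 6 uptake genes, 1 of 5 synthetases, 1 of 4 thioesterases and 1 of 2 malonyl-CoA enzymes. On 332, 23 members fell with TAC and 2 rose, against 12.1% of genes lower and 11.8% higher, with a median of -0.42. Within set 1 alone TAC lowered 21 members in vehicle hearts (median -0.39) and 20 in hearts on 332 (median -0.38). Within set 2, with 2 hearts against 2 on 332, 0 members were called, and 31 of 36 had a negative log2 change (median -0.47). Shares over all genes were not computed for the fits within a set. The fit without a term for the sequencing set called 17 members in vehicle hearts, with Acadl (-0.26), Acot7 (-0.20), Fabp4 (-0.42) and Mlycd (-0.34) no longer past the threshold.

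**Figure D4:**
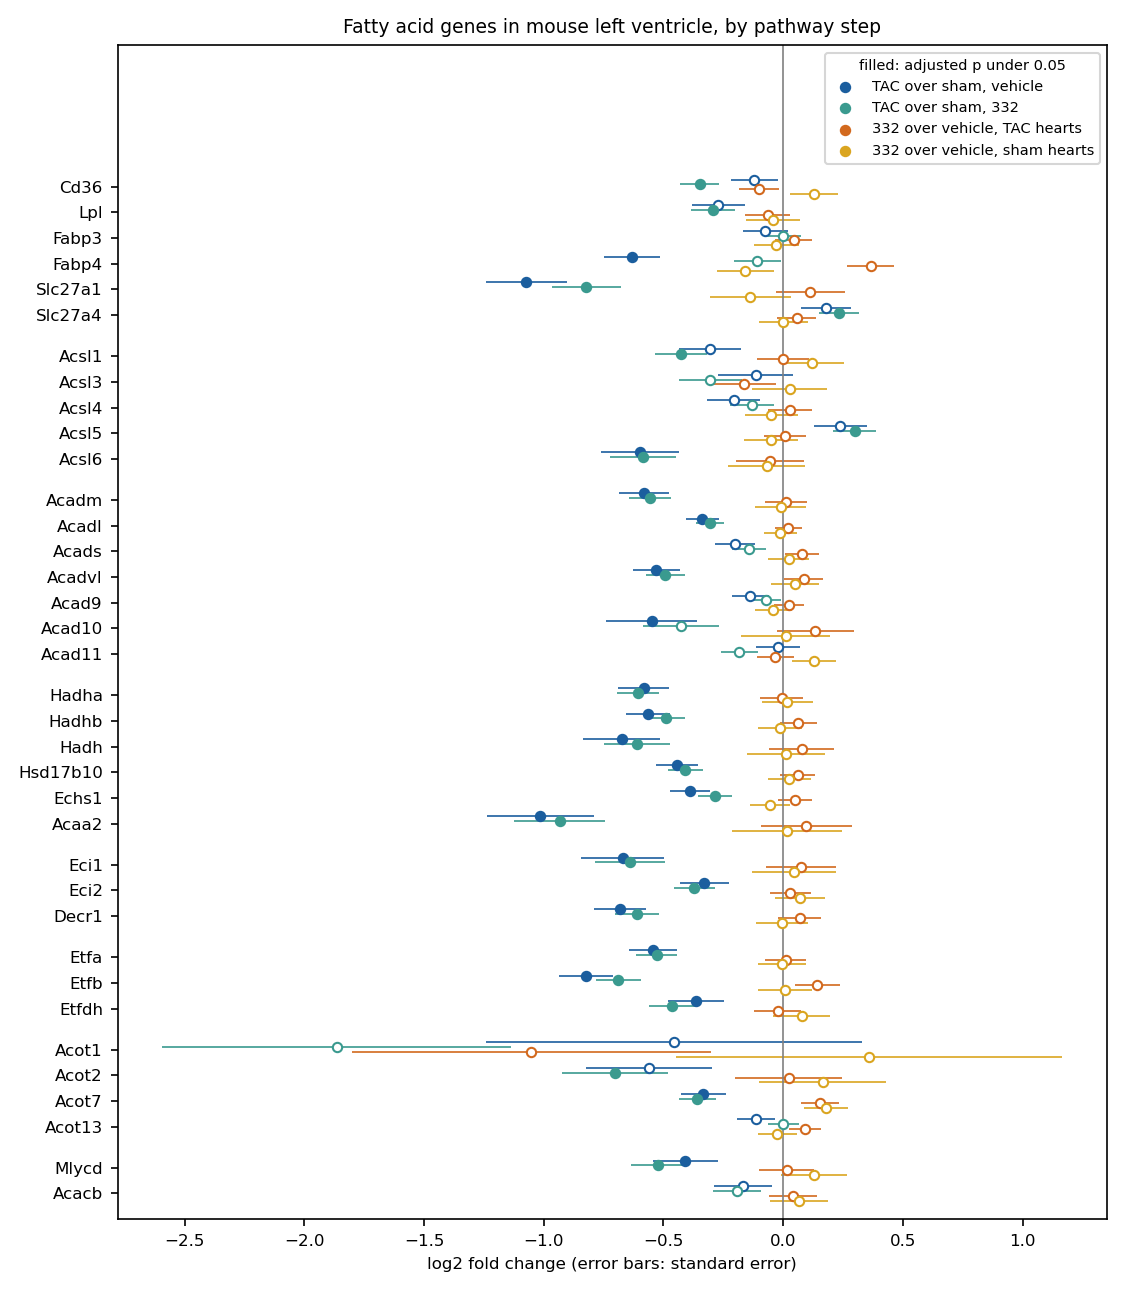
Log2 fold change of each member in mouse left ventricle, grouped by pathway step; bars are standard errors, and filled points passed an adjusted p of 0.05. TAC over sham lies below 0 for most members with vehicle and with 332, down to -1.07 for Slc27a1 among called members, while 332 over vehicle gives no filled point in TAC or sham hearts.

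Other cell types shifted with TAC in the same samples. The summed cardiomyocyte markers were 36100 to 53441 CPM in TAC hearts on 332, 35620 to 46986 CPM in TAC hearts on vehicle, 47094 to 62961 CPM in sham hearts on 332 and 46094 to 48769 CPM in sham hearts on vehicle. In vehicle hearts 4 of 7 of these markers fell and 2 rose with TAC. The summed fibroblast markers were 1180 to 2104 CPM in TAC vehicle hearts and 540 to 630 CPM in sham vehicle hearts, and 7 of 8 rose. Among the others, 2 of 8 endothelial and 2 of 7 macrophage markers rose, 0 of 5 tested adipocyte markers and 0 of 7 smooth muscle markers were called. Adipocyte markers instead separated the sequencing sets, and sham vehicle has no set 2 heart. In the 6 set 2 hearts Adipoq, the adiponectin gene, was at 5.09 to 9.40 CPM, Cfd at 5.93 to 9.72 CPM and Cidec at 2.64 to 5.01 CPM, and in the 12 set 1 hearts they reached at most 0.0896, 0.734 and 0.122 CPM. The adipocyte hormone gene Lep was under 0.1 CPM in every heart. What part these shifts have in the falls of the members was not tested. TAC 332 replicate 4 had the lowest CPM of all 18 hearts in 19 of 36 members. Without it 25 members were called for TAC in vehicle and 22 for TAC on 332.

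Slc27a1 and Acaa2 had the largest falls among called members. Slc27a1 gave 63.1, 87.3, 61.3, 57.5 and 92.6 CPM in TAC hearts on 332 and 113, 120.1, 120.3, 132 and 157 CPM in sham hearts on 332. Among vehicle hearts there were 76.2, 58.2, 58.04, 75.98 and 66.6 CPM after TAC and 105, 142 and 155 CPM after sham surgery. Each TAC heart lay below each sham heart of the same treatment, and Slc27a1 fell by 1.07 (SE 0.17, adjusted p = 0.00034) on vehicle and by 0.82 (SE 0.14, adjusted p = 0.000804) on 332. Acaa2 gave 307, 395, 319.7, 206 and 486 CPM in TAC hearts on 332 and 613, 593, 657, 715 and 701 CPM in sham hearts on 332. The vehicle hearts held 379, 266, 293, 413 and 253 CPM after TAC and 591, 623 and 675 CPM after sham surgery. The groups again did not overlap, TAC 332 replicate 4 being the lowest of all, and Acaa2 fell by 1.01 (SE 0.22, adjusted p = 0.00454) on vehicle and by 0.93 (SE 0.19, adjusted p = 0.00297) on 332.

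The other uptake genes were less affected. Fabp3 gave 2152, 2389, 2919.6, 3335 and 3820.1 CPM in TAC hearts on 332 and 2435, 2270.2, 2404, 3786 and 3343 CPM in TAC hearts on vehicle. It gave 2508, 2514, 2440.4, 3598 and 3576 CPM in sham hearts on 332 and 2272, 2659 and 2641 CPM in sham hearts on vehicle. In the 3 groups with set 2 hearts, both of these stood above all set 1 hearts of the group, and TAC and sham overlapped. Its log2 change with TAC was -0.07 (adjusted p = 0.603) on vehicle, with an interval (1.96 SE either side) of -0.26 to 0.11. Fabp4 fell with TAC in vehicle hearts by 0.63 (SE 0.12, adjusted p = 0.000597), a call lost without the sequencing set term, where the log2 change was -0.42. On 332 its change was -0.11 (adjusted p = 0.468). Cd36 fell with TAC on 332 by 0.35 (SE 0.08, adjusted p = 0.00391) and gave -0.12 (adjusted p = 0.399) on vehicle; within set 1 alone its change on 332 was -0.28 and was not called. Slc27a4 gave 16.6, 14.3, 18.6, 17.5 and 16.7 CPM in TAC hearts on 332 and 13.6, 14.7, 13.2, 14.7 and 14.8 CPM in sham hearts on 332, which overlapped. Among vehicle hearts there were 15.95, 13.8, 15.97, 18.02 and 16.8 CPM after TAC and 14.96, 14.3 and 11.99 CPM after sham surgery. Its rise on 332 (0.23, adjusted p = 0.048) was lost with DESeq2 (0.23) and without any 1 of 12 libraries, at 0.18 to 0.23. These were TAC 332 replicates 1, 3 and 4, TAC vehicle replicates 1, 3 and 5, sham 332 replicates 1, 3, 4 and 5 and sham vehicle replicates 1 and 2. Lpl fell on 332 by 0.29 (SE 0.09, adjusted p = 0.0244), a call lost within set 1 alone (-0.26) and without sham 332 replicate 3 (-0.25) or TAC 332 replicates 3 (-0.24) or 4 (-0.23), and gave -0.27 (adjusted p = 0.0772) on vehicle.

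**Figure D5:**
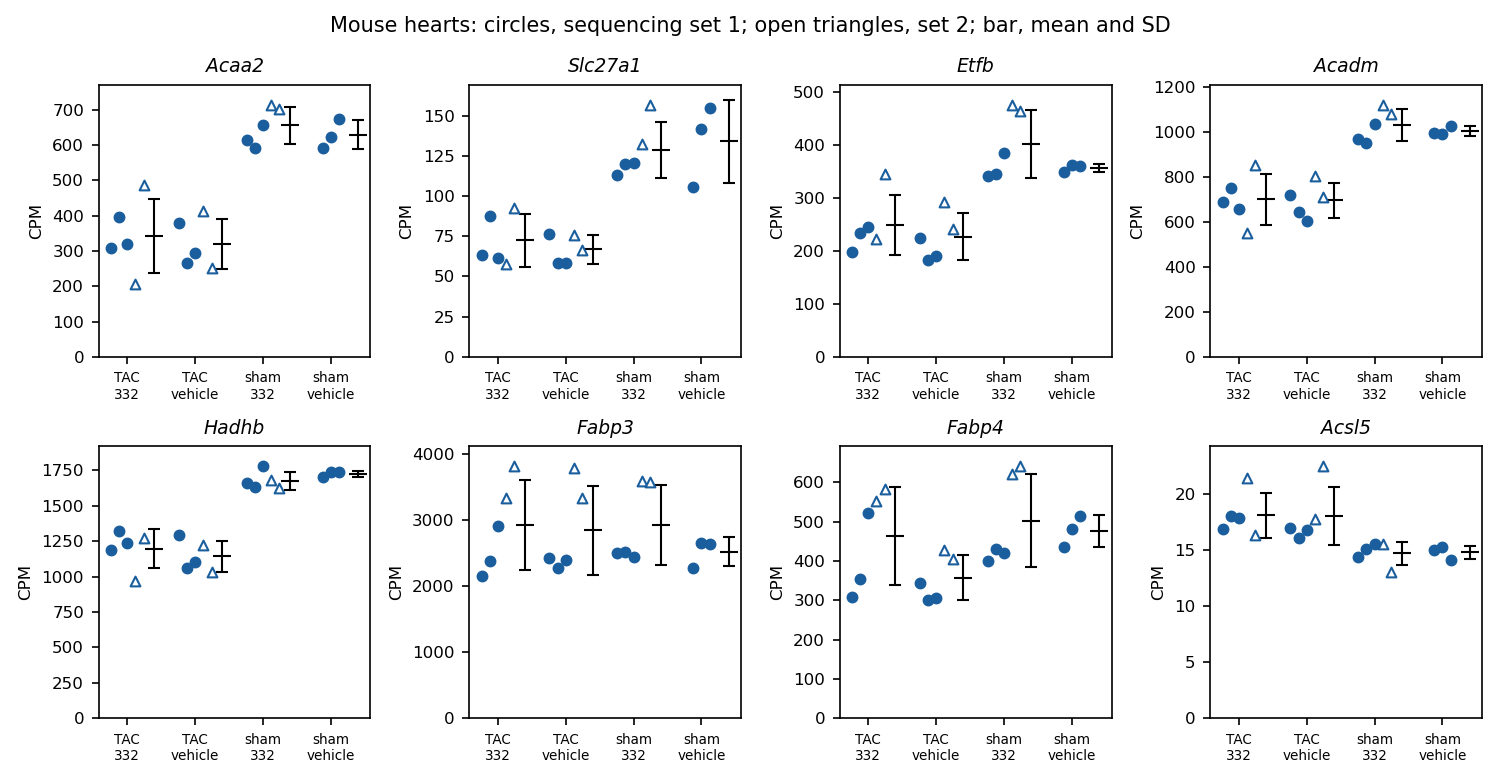
CPM of 8 members in every mouse heart, with the mean and SD of each group beside the points (n = 5, 5, 5 and 3); groups from left to right are TAC with 332, TAC with vehicle, sham with 332 and sham with vehicle, and open triangles mark sequencing set 2. Acaa2 and Slc27a1 are lower in every TAC heart than in every sham heart, at 206 to 486 CPM against 591 CPM or more for Acaa2, whereas TAC and sham hearts overlap for Fabp3.

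Of the synthetases, Acsl1 and Acsl6 fell and Acsl5 rose with TAC on 332. Acsl1 gave 690.2, 729, 577, 428 and 720.3 CPM in TAC hearts on 332 and 884, 812, 836, 839 and 845 CPM in sham hearts on 332. The vehicle hearts held 729, 569, 671, 619 and 554 CPM after TAC and 745, 871 and 793 CPM after sham surgery. All TAC hearts lay below the sham hearts of their treatment; Acsl1 fell by 0.43 (SE 0.11, adjusted p = 0.00698) on 332 and had a change of -0.31 (adjusted p = 0.0869) on vehicle. Acsl5 gave 16.9, 18.05, 17.9, 21.5 and 16.3 CPM in TAC hearts on 332 and 14.4, 15.1, 15.5, 15.6 and 13.1 CPM in sham hearts on 332. Among vehicle hearts there were 17.02, 16.1, 16.9, 17.8 and 22.5 CPM after TAC and 15.04, 15.3 and 14.1 CPM after sham surgery. TAC hearts were above sham hearts throughout, but the changes were small: Acsl5 rose on 332 by 0.30 (SE 0.09, adjusted p = 0.021), a call lost within set 1 alone (0.24) and at 0.23 without sham 332 replicate 5 or TAC 332 replicate 4, and gave 0.24 (adjusted p = 0.119) on vehicle. Acsl6 fell by 0.58 (SE 0.14, adjusted p = 0.00388) on 332 and by 0.60 on vehicle, the last lost without sham vehicle replicate 1 (-0.49). Acsl3 and Acsl4 passed no test in the hearts, at -0.11 and -0.21 on vehicle.

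The dehydrogenases of medium, long and very long chains fell. Acadm averaged 700.3 ± 112 CPM in TAC hearts on 332 and 1032 ± 71.8 CPM in sham hearts on 332 (SD, n = 5 each), and fell by 0.56 (SE 0.09, adjusted p = 0.000152). On vehicle it averaged 696 ± 76.5 CPM in TAC hearts and 1003 ± 20.9 CPM in sham hearts (SD, n = 5 and 3), and fell by 0.58 (SE 0.11, adjusted p = 0.000425). Acadl gave 769, 819, 784, 828 and 969 CPM in TAC hearts on 332 and 969.5, 969, 1009, 1123 and 1073 CPM in sham hearts on 332. The vehicle hearts held 791, 735, 779, 912 and 892 CPM after TAC and 931, 979.5 and 1035 CPM after sham surgery. The nearest TAC and sham hearts on 332 differed by less than 1 CPM but the groups did not overlap, and Acadl fell by 0.34 (SE 0.07, adjusted p = 0.00118) on vehicle and by 0.30 (SE 0.06, adjusted p = 0.000721) on 332. Acadvl fell by 0.53 on vehicle and 0.49 on 332. Acad10 fell on vehicle by 0.55 (SE 0.19, adjusted p = 0.0352), a call lost without any 1 of TAC vehicle replicates 1, 3 and 5 and sham vehicle replicates 2 and 3, at -0.53 to -0.48. Acads, Acad9 and Acad11 passed no test, at -0.20, -0.14 and -0.02 on vehicle.

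Of the later steps, Hadhb gave 1187, 1321, 1239, 967 and 1269 CPM in TAC hearts on 332 and 1661, 1631, 1779, 1679 and 1628 CPM in sham hearts on 332. Among vehicle hearts there were 1292, 1064, 1101, 1226 and 1035 CPM after TAC and 1702, 1737 and 1738 CPM after sham surgery. No TAC heart reached the sham range, and Hadhb fell by 0.56 (SE 0.09, adjusted p = 0.000162) on vehicle and by 0.49 (SE 0.08, adjusted p = 0.00015) on 332. Hadha fell alongside by 0.58 and 0.61, Hadh by 0.67 and 0.61, Hsd17b10 by 0.44 and 0.41, and Echs1 by 0.39 and 0.29, on vehicle and on 332. The fall of Echs1 on 332 was not called within set 1 alone (-0.24). Eci1 gave 105, 120.4, 102, 73.3 and 139 CPM in TAC hearts on 332 and 149.8, 155, 173, 188 and 176 CPM in sham hearts on 332. The vehicle hearts held 117, 90.5, 84.9, 129 and 92.4 CPM after TAC and 146, 156 and 172 CPM after sham surgery. It fell by 0.67 (SE 0.17, adjusted p = 0.0103) on vehicle and by 0.64 (SE 0.15, adjusted p = 0.00516) on 332, and TAC and sham did not overlap. Decr1 fell by 0.68 (SE 0.11, adjusted p = 0.000131) on vehicle and by 0.61 (SE 0.09, adjusted p = 8.79e-05) on 332. Eci2, a second enoyl-CoA isomerase, fell by 0.37 on 332 and by 0.33 on vehicle, the last lost without sham vehicle replicate 3 (-0.27) or TAC vehicle replicate 2 (-0.29).

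Etfb gave 198, 233, 246, 221 and 346 CPM in TAC hearts on 332 and 341, 345, 385, 476 and 464 CPM in sham hearts on 332, with TAC 332 replicate 5 inside the sham range. Among vehicle hearts there were 224, 183, 190.3, 293 and 241 CPM after TAC and 348, 362 and 359 CPM after sham surgery, without overlap. It fell by 0.82 (SE 0.11, adjusted p = 3.17e-05) on vehicle and by 0.69 (SE 0.09, adjusted p = 4.09e-05) on 332. Etfa fell by 0.54 and 0.53 on vehicle and on 332. Etfdh fell by 0.46 on 332 and by 0.36 on vehicle, the last lost without either replicate 2 or 3 of TAC vehicle or of sham vehicle, at -0.35 to -0.32.

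Acot2 gave 37.2, 46.5, 34.8, 17.1 and 42.2 CPM in TAC hearts on 332 and 54.5, 59.7, 53.6, 57.7 and 62.7 CPM in sham hearts on 332, without overlap. Among vehicle hearts there were 45.97, 26.03, 30.6, 41.9 and 29.97 CPM after TAC and 43.5, 58.7 and 55.5 CPM after sham surgery, which overlapped. Its fall on 332 (-0.70, adjusted p = 0.0343) was lost without any 1 of TAC 332 replicates 1 and 3 and sham 332 replicates 2, 4 and 5, at -0.71 to -0.65, and within set 1 alone (-0.49), and its change on vehicle was -0.56 (adjusted p = 0.14). Acot2 and Acot1 are near-identical copies, so reads may be split between them, and Acot1, at 0.757 to 24.3 CPM over the 18 hearts, is uncertain and passed no test. Its log2 change with TAC on 332, -1.87, was the lowest of all members. On 332 it gave 1.27 to 5.73 CPM in TAC hearts and 10.1 to 15.8 CPM in sham hearts, without overlap. Acot7 fell by 0.36 (SE 0.08, adjusted p = 0.00194) on 332 and by 0.33 on vehicle, the last lost without sham vehicle replicate 2 (-0.29). Acot13, the most abundant thioesterase per length in the heart, gave 141, 155, 189, 208 and 231 CPM in TAC hearts on 332 and 159, 149, 159, 201 and 195 CPM in TAC hearts on vehicle. It gave 163, 167, 173, 213 and 202 CPM in sham hearts on 332 and 165, 167 and 171 CPM in sham hearts on vehicle, and TAC and sham overlapped. Mlycd gave 54.3, 58.8, 57.5, 47.5 and 66.1 CPM in TAC hearts on 332 and 73.6, 76.9, 73.5, 89.5 and 96.5 CPM in sham hearts on 332, without overlap. The vehicle hearts held 61.3, 47.7, 51.2, 71.02 and 50.98 CPM after TAC and 56.8, 75.99 and 81.1 CPM after sham surgery. It fell by 0.52 (SE 0.11, adjusted p = 0.00322) on 332 and by 0.41 on vehicle, the last lost without either replicate 2 or 3 of TAC vehicle or of sham vehicle, at -0.39 to -0.31. Acacb passed no test in the hearts, at -0.17 on vehicle.

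The agonist 332 changed 0 of 36 members in TAC hearts and 0 of 36 in sham hearts by edgeR's quasi-likelihood test, against 0.427% and 0.00712% of all genes. At an unadjusted p of 0.05 there was 1 member in TAC hearts (Fabp4) and 0 in sham hearts, and DESeq2 called 1 in TAC hearts (Fabp4) and 0 in sham hearts. The median log2 change over the members was 0.04 in TAC hearts and 0.01 in sham hearts. Leaving out Acot1, the intervals of 1.96 SE either side ran at most from -0.42 (Acsl3) to 0.56 (Fabp4) in TAC hearts, and 34 of 35 lay within 0.5 of 0. In sham hearts they ran from -0.47 (Slc27a1) to 0.69 (Acot2). For Hadhb, for instance, the change with 332 in TAC hearts was 0.06 (-0.09 to 0.21), and for Acadm 0.01 (-0.16 to 0.19). All 36 members overlapped between TAC hearts on 332 and on vehicle, where of all tested genes 0.783% lay wholly below and 0.541% wholly above. In sham hearts Acot7 alone did not overlap and lay above, where 2.29% of all genes lay wholly below and 3.05% wholly above. Acot7 gave 45.7, 42.99, 45.01, 57.4 and 56.2 CPM on 332 and 36.03, 42.3 and 40.7 CPM on vehicle, a change of 0.18 (adjusted p = 0.997). Within the sequencing sets, 30 of 36 log2 changes with 332 in TAC hearts were positive in set 1 (median 0.08) and 24 of 36 negative in set 2 (median -0.03). These medians are small, set 2 has 2 hearts against 2, and the signs over all genes were not counted within a set. No difference between the sets is therefore drawn from them. The test of whether 332 acted differently in TAC and sham hearts called 0 members, against 0.0641% of genes (0.0214% higher and 0.0427% lower), with 1 at an unadjusted p of 0.05 and 0 by DESeq2.

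Fabp4 was the member nearest to a 332 effect. It gave 309.6, 354, 521, 554 and 583 CPM in TAC hearts on 332 and 345, 302, 307, 428 and 406 CPM in TAC hearts on vehicle. It gave 399.6, 429.9, 421, 621 and 641 CPM in sham hearts on 332 and 434, 482 and 516 CPM in sham hearts on vehicle. On 332, TAC replicates 1 and 2 lay within the vehicle range and replicates 3 to 5 above it. The log2 change was 0.37 in TAC hearts (SE 0.10, adjusted p = 0.109) and -0.16 (adjusted p = 1) in sham hearts, with a difference of 0.52 (adjusted p = 0.197). It passed with no low-count filter (0.36), with DESeq2 (0.36) and without TAC 332 replicate 1 (0.45), and was 0.24 without TAC 332 replicate 3. The difference of effects was 0.30 with no term for the sequencing set. In each group that has them, the set 2 hearts (replicates 4 and 5) held the highest Fabp4 and the highest summed adipocyte markers. In set 2 that sum was 49.0 to 52.4 CPM in TAC hearts on 332, 52.2 to 57.7 CPM in TAC hearts on vehicle and 41.9 to 51.7 CPM in sham hearts on 332. In set 1 it was 20.4 to 26.3 CPM in TAC hearts on 332, 16.9 to 21.7 CPM in TAC hearts on vehicle, 19.4 to 21.1 CPM in sham hearts on 332 and 15.7 to 22.8 CPM in sham hearts on vehicle. Nearly all of the set 1 sum was 1 marker, Cidea, at 15.7 to 26.2 CPM in set 1 and 23.8 to 34.1 CPM in set 2. Adipoq reached at most 0.0896 CPM in set 1. Within set 1 the Fabp4 change with 332 in TAC hearts was 0.31, and within set 2 it was 0.44. The summed endothelial markers ran from 771 to 975 CPM in TAC hearts on 332 and 820 to 963 CPM in TAC hearts on vehicle. Their part in the Fabp4 values was not tested.

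The knockdown in rat and TAC in mouse share no library. Of the 33 members tested in both, 24 fell with the knockdown and 19 with TAC, and 15 fell in both, which is 62.5% of those lower with the knockdown and 78.9% of those lower with TAC. Over the 10738 genes tested in both species under 1 shared symbol, 372 fell in both. That is 22.8% of the 1631 lower with the knockdown and 27.1% of the 1372 lower with TAC. With 24 and 19 of the 33 members lower, many would fall in both even if the calls were unrelated. The overlap expected from these counts was not computed. The larger shares of the members therefore cannot show whether the knockdown and TAC lowered the same members beyond that. The 15 members lower in both were Slc27a1, Acadm, Acadl, Acadvl, Acad10, Hadha, Hadhb, Hadh, Acaa2, Eci1, Decr1, Etfa, Etfb, Etfdh and Mlycd. The order of size differed: Fabp3 led in the knockdown at -2.89 and was -0.07 with TAC, while Slc27a1 led with TAC at -1.07 and was -0.53 with the knockdown.

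Genes of the pathway outside the members were counted by list. Of all tested rat genes, 12.7% fell and 7.75% rose with the knockdown in vehicle. The shares were 17.6% and 18.1% with 915 in knockdown cells, and 20.6% and 21.5% with 915 in scramble cells. Of all tested mouse genes, 12.8% fell and 13.5% rose with TAC in vehicle hearts, and 12.1% and 11.8% in hearts on 332. Of 7 genes of the carnitine shuttle, 5 fell and 2 rose with the knockdown in vehicle, with log2 changes of -1.49 for Cpt2, the inner membrane palmitoyltransferase, and -0.92 for Crat, the carnitine acetyltransferase. With 915, 4 fell in knockdown cells and 5 in scramble cells, where Cpt1a, a form of the outer membrane enzyme, stood at -0.77 and the carrier Slc25a20 at -0.41. With TAC 5 fell in vehicle hearts (Cpt2 at -0.39, Slc25a20 at -0.32) and 4 in hearts on 332.

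Of 17 peroxisomal genes, 7 fell and 2 rose with the knockdown in vehicle, with Phyh, which prepares branched chains, at -1.03. With 915, 6 fell in knockdown cells, with the dienoyl-CoA isomerase Ech1 at -0.56, and in scramble cells 6 fell and 2 rose, with Phyh at 0.31. With TAC 5 fell in vehicle hearts, led by Ech1 at -1.04, and on 332 7 fell and 1 rose. Several of these counts were near the share of all genes called in either direction. That held for 915 in knockdown cells (35.3% against 35.7%), 915 in scramble cells (47.1% against 42.2%) and TAC in vehicle (29.4% against 26.4%). The counts for the knockdown in vehicle (52.9% against 20.4%) and TAC on 332 (47.1% against 23.8%) were higher. Of 9 other acyl-CoA genes, 5 fell with the knockdown in vehicle, Acot11 at -1.58 among them. With 915, 6 rose in knockdown cells and 7 in scramble cells, such as Acsf2 (0.77) and Ivd, an enzyme of leucine breakdown (0.61). With TAC 4 fell and 1 rose in vehicle hearts, Acot9 at 0.49, and 3 fell and 1 rose in hearts on 332.

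Of the other genes of uptake and lipolysis 8 were tested in rat and 10 in mouse. With the knockdown in vehicle 3 fell and 2 rose, with the acyl-CoA binding protein gene Dbi at -1.25. With 915, 4 fell and 2 rose in knockdown cells, where Fabp5, another fatty acid binding protein, stood at 1.51. In scramble cells 4 also fell and 2 rose with 915, with Lipe, the hormone-sensitive lipase, at -2.02 and the lipoprotein lipase inhibitor Angptl4 at -1.54. With TAC in vehicle 3 fell and 1 rose, with Dbi at -0.39 and Slc27a3 at 1.26. Slc27a3 was scarce in the hearts, at 1.16 to 1.96 CPM in TAC vehicle and 0.548 to 0.609 CPM in sham vehicle.

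Of 10 receptors and coactivators, which include both siRNA targets, 6 fell with the knockdown in vehicle, with Perm1, a striated muscle regulator that works with ERR, at -3.68. With 915 in scramble cells 6 rose, with Perm1 at 0.92 and Ppara at 0.96, and in knockdown cells Ppara alone rose, by 0.62. With TAC 0 of the 10 were called in vehicle hearts by edgeR (2 at an unadjusted p of 0.05), and 2 fell on 332, Esrra at -0.21 and Ppargc1a at -0.64. With 332 itself 0 genes of these lists were called by edgeR, against 0.427% of all genes in TAC hearts and 0.00712% in sham hearts. At an unadjusted p of 0.05 there was 1 in TAC hearts and 2 in sham hearts.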

How the data were processed

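RNA-seq of 12 rat and 18 mouse libraries was used. The 36 members and the other gene lists were chosen with earlier results of these data known. For rat, the authors deposited whole-number read counts and FPKM per gene, made with HISAT2 2.0.5, StringTie 1.3.3b and featureCounts 1.5.0-p3 on rn6, per the submitters' processing notes. For mouse, the authors deposited estimated counts and TPM per transcript, made with fastp and Salmon per the same notes; the genome build is not given in the sources used here. Mouse estimated counts were summed per gene and rounded (7.43% of values were not whole).

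Genes were kept with edgeR's filterByExpr (minimum count 10), which left 15181 rat and 14047 mouse genes, scaled by TMM and tested with edgeR 4.0.16's robust quasi-likelihood test in R 4.3.3. The fit took all libraries of a species as 4 groups, and in mouse added a term for the sequencing set. P-values were adjusted by Benjamini-Hochberg over all tested genes, with a threshold of 0.05. CPM were computed from the deposited counts with TMM-scaled library sizes. Alternatives were DESeq2 1.42.0, other scaling and filters, other sets of libraries, a replicate block and each library left out. The script was tested on simulated data. Replicate pairs differed by a chi-square of at least 4.07 per gene, so none was counted as 1 library.

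Values in every library are given by rule: for the called members with the 3 largest rises and falls of each comparison (5 CPM or more on average), and for the member of each step with the highest level per length. Those of Esrra, Esrrg, rat Echs1 and mouse Fabp4 and Acot7 were added after the values were seen. From each other list at most the 2 genes with the smallest adjusted p in a comparison are named.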

Additional observations from a re-analysis of the deposited data

Results flagged for a closer look

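The effect of 915 on the log2 scale differed between knockdown and scramble cells, by the interaction term of the edgeR fit, for 7 members. The difference, knockdown minus scramble, was 0.75 for Decr1, 0.60 for Slc27a1, 0.48 for Acot7, 0.37 for Acadm, 0.30 for Acaa2, 0.28 for Etfdh and -0.43 for Acsl1.

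In the groups of 5 hearts, 5 of 108 groups of values held a heart far from the other 4 (its gap to the nearest over 0.71 of the group's range), and chance alone flags about 1 in 20. Etfa stood at 272 CPM in TAC 332 replicate 4, the lowest of its group. Acsl5 stood at 22.5 CPM and Acot1 at 24.3 CPM in TAC vehicle replicates 5 and 3, each the highest of its group. Acacb stood at 282 CPM in TAC vehicle replicate 1, the highest, and Etfdh at 515 CPM in sham 332 replicate 5, the lowest.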

How the results depend on the processing

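No called member changed direction under any alternative, and all 25 calls of the knockdown in vehicle held in each of them. With 332 in TAC hearts, where edgeR called none, the median log2 change was 0.08 within sequencing set 1 and -0.03 within set 2, against 0.04 in all hearts. The number of called members with TAC on 332 dropped to 0 within sequencing set 2 (2 hearts against 2). With no low-count filter 332 called 2 members in TAC hearts and 2 by its interaction with TAC, DESeq2 called 1 in TAC hearts, and the 915 interaction called 4 without both libraries that held Echs1 counts, an alternative chosen after seeing the data. Over the fits that each left out 1 library, the called members numbered 25 to 26 with the knockdown in vehicle, 18 to 20 with 915 in scramble cells, 14 to 17 with 915 in knockdown cells, 24 to 26 with the knockdown under 915 and 4 to 8 for the 915 interaction. They numbered 17 to 25 with TAC in vehicle, 22 to 28 with TAC on 332, 0 to 1 with 332 in TAC hearts, 0 with 332 in sham hearts and 0 for its interaction. The 915 interaction called 4 without knockdown vehicle replicates 1 or 3, scramble 915 replicates 1, 2 or 3 or scramble vehicle replicate 1. Same-numbered libraries did not vary together in rat (correlations of -0.053 to 0.040) or in mouse set 1 (-0.085 to 0.076), so the numbers were not taken as pairs. In mouse set 2 each group holds 2 hearts, whose distances from their mean mirror each other. The correlations there, down to -0.273, therefore cannot show whether hearts were paired. A replicate block gave 25, 19, 17, 26 and 7 called members in the 5 rat comparisons, and 19, 23, 0, 0 and 0 in mouse. For single members, the block ended 6 calls and made 3, DESeq2 ended 2 and made 6, and size factors of another kind ended 2. Where no cause is given, the cause was not tested.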
